A study of Mus musculus with 47 samples.

Results

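Acetylation of histone H3 at lysine 27 (H3K27ac) was mapped by chromatin immunoprecipitation with sequencing in control NMuMG cells given 5 ng/ml TGFβ1 for 48 h and in control NMuMG cells left untreated (0 h). NMuMG is an epithelial line from mouse mammary gland, and TGFβ1 is used in it to set off an epithelial to mesenchymal transition. Both libraries came from cells of the genotype labelled control, with library names starting sgCt, and not from the Pbrm1 knockout that the series also holds, and both were crosslinked with formaldehyde alone. The members are all listed peaks of the 2 H3K27ac lists on assembled chromosomes, 36469 in all, of which 15962 were called at 48 h and 20507 at 0 h. They come from 2 of the 47 samples of the series, 32 of which have a peak list. There was 1 library at each time, so no difference below has a replicate check or a test, and bracketed ranges are exact Clopper-Pearson 95% intervals that cover counting error only. The peak numbers in each list ran without a gap, and both lists reached the same threshold (largest q of 0.0491 at 48 h and 0.0498 at 0 h). The number of reads behind either list is unknown. A peak called at 1 time only may therefore lie just under the threshold at the other, and a mark on fewer cells cannot be told apart from a weaker mark on all of them. Fold enrichment is the authors' value for ChIP over input at a peak. It ranks peaks within a list, and values from the 2 lists are set side by side without comparison. Positions are in mm10, counted from 1.

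H3K27ac is deposited mainly by the acetyltransferases p300 and CBP and marks active promoters and active enhancers. H3K4me3 lies at promoters and H3K4me1 at enhancers and promoter flanks, whether or not H3K27ac is present, so that an element with H3K4 methylation and no H3K27ac is commonly described as inactive or poised. In an epithelial to mesenchymal transition, genes of cell junctions and keratins are known to be turned down, and genes of the matrix, the contractile cytoskeleton and matrix adhesion to be turned up. TGFβ signals through SMAD2 and SMAD3, which bind DNA with SMAD4 and often beside AP-1 factors.

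A peak is called gained when it was listed at 48 h and shared no base with a 0 h peak, lost when it was listed at 0 h and shared no base with a 48 h peak, and kept when a 0 h peak overlapped a 48 h peak. At 48 h, 3208 of 15962 peaks were gained, or 20.1% (19.5 to 20.7%), and of the 0 h peaks 7967 of 20507 were lost, or 38.9%. The log2 ratio of peak number, 48 h over 0 h, was -0.36 (-0.39 to -0.33). Both losses and gains fell more often on distal peaks than on promoter peaks, where a promoter peak lies within 2 kb of the start of a protein-coding gene. Of the distal 48 h peaks 2955 of 5613 were gained, or 52.6%, against 253 of 10349 promoter peaks, or 2.44%. Of the distal 0 h peaks 5083 of 7690 were lost, or 66.1% (65.0 to 67.2%), against 2884 of 12817 promoter peaks, or 22.5% (21.8 to 23.2%). The difference between distal and promoter losses was 43.6 percentage points.

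The peaks that came and went were the weak ones of each list. Gained peaks had a median fold of 4.98, against 28.2 for the 48 h peaks that overlapped a 0 h peak, and lost peaks had a median fold of 4.70, against 46.1 for kept peaks. When each list was divided into quintiles by −log10 q, the gained share of the 48 h list from the weakest to the strongest quintile was 63.2%, 35.0%, 2.32%, 0% and 0%. The lost share of the 0 h list in the same order was 76.5%, 68.9%, 46.8%, 2.12% and 0%. The upper limit that a count of 0 allows was 0.115% in the strongest quintile at 48 h and 0.0899% at 0 h. Loss thus reached the middle quintile of its list, where gain was rare. The 0 h list is the longer one, however. When it was cut to the length of the 48 h list, 71.85% of 0 h peaks were kept and 26.7% of 48 h peaks gained. The lost and gained shares were then nearly alike, and quintiles were not redrawn for these lists. Of the peaks with a fold of at least 20, 5 of 7092 were gained at 48 h and 175 of 8632 were lost from the 0 h list (2.03%). Distal peaks were also the weaker ones, and within a quintile the gap between distal and promoter losses was smaller than over the whole list. In the weakest quintile 81.0% of distal and 66.7% of promoter 0 h peaks were lost, in the next quintile 72.7% and 62.3%, and in the middle quintile 55.3% (52.8 to 57.7%) and 41.2% (39.2 to 43.2%). Among 48 h peaks the gap stayed wide, with 76.0% of distal and 21.8% of promoter peaks gained in the weakest quintile and 51.7% and 6.89% in the next. Few of the gained or lost distal peaks lay just beside a peak of the other list, and more of the promoter ones did. A peak of the other list stood within 1 kb of 8.12% of gained distal and 6.47% of lost distal peaks, and of 38.7% of gained promoter and 15.2% of lost promoter peaks.

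**Figure D1:**
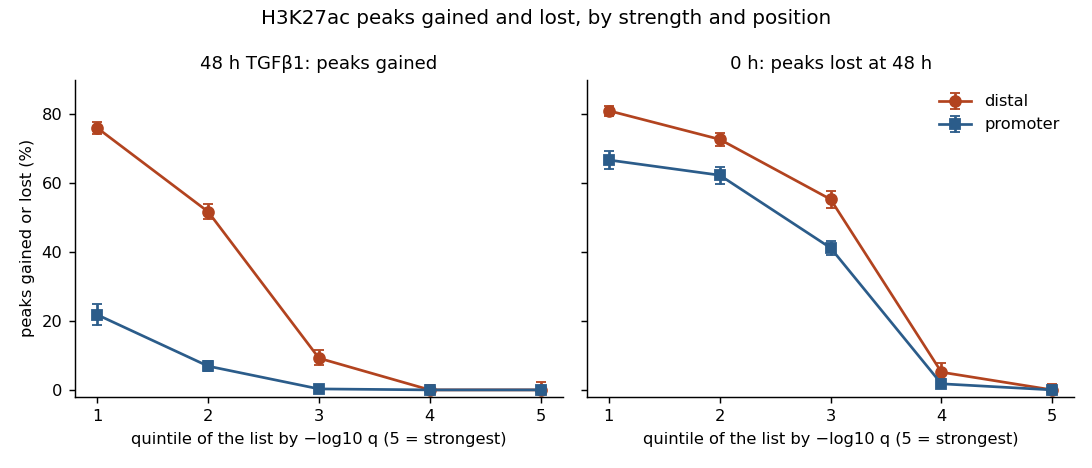
Share of peaks gained at 48 h (left) and of 0 h peaks lost at 48 h (right), in percent, by quintile of the list ranked by −log10 q, for distal (circles) and promoter (squares) peaks; bars are exact 95% intervals. Distal gains reach 76.0% in the weakest quintile, promoter gains 21.8%, and neither gains nor losses occur in the strongest quintile.

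Promoters that lost H3K27ac differed in base composition from those that kept it. The comparison used RefSeq windows of GRCm38.p6, from 250 bases before to 50 after the gene start, of which 21238 windows of 17469 protein-coding genes were matched by gene ID. A window was counted as gained (44), lost (1404) or kept (8600) by the peaks that overlap it, and 10606 had no peak at either time. The median share of G and C bases was 67.2% in gained, 59.3% in lost, 65.3% in kept windows and 48.7% in windows with no peak, and the median number of CpG pairs was 29, 17, 26 and 4. Lost windows were also lower in G and C in a narrower range of peak strength. With the 0 h peak in quintile 2 or 3 by −log10 q, 1064 lost windows had a median of 58.7% and 1278 kept windows a median of 65.0%, and 40.4% and 77.1% of them were above 60%. CpG-rich promoters are a known class with broad activity across tissues. The windows printed next are examples from each class, chosen after their values were seen, and need not be typical of it. They are the promoters of Ltbp2 and Col7a1 (gained), of Got1, F11r and Cldn7 (lost), and of Krt18 and Snai1 (kept). In share of G and C bases, both gained windows lay below the gained median of 67.2%. The lost Cldn7 window (62.3%) was above the kept Krt18 window (61.3%), while Got1 and F11r were below both kept windows. Ltbp2 encodes a matrix protein of the latent TGFβ binding family and Col7a1 the collagen of anchoring fibrils. Got1 encodes an aspartate aminotransferase, F11r and Cldn7 tight junction proteins, Krt18 a keratin and Snai1 a repressor of epithelial genes.

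The windows are Ltbp2 (chr12:84876442-84876741, minus strand), Col7a1 (chr9:108953336-108953635, plus), Got1 (chr19:43524556-43524855, minus), F11r (chr1:171437311-171437610, plus), Cldn7 (chr11:69965171-69965470, plus), Krt18 (chr15:102027966-102028265, plus) and Snai1 (chr2:167537945-167538244, plus). They are given 5′ to 3′ on the strand of the gene, and capitals mark every match, on either strand, to the motifs named after them.
Ltbp2: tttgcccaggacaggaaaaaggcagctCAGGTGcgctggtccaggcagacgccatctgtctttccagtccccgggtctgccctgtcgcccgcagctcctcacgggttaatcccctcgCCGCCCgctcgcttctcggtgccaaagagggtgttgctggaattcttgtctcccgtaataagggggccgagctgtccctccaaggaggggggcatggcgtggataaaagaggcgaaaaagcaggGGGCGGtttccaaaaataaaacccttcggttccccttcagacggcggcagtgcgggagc
Col7a1: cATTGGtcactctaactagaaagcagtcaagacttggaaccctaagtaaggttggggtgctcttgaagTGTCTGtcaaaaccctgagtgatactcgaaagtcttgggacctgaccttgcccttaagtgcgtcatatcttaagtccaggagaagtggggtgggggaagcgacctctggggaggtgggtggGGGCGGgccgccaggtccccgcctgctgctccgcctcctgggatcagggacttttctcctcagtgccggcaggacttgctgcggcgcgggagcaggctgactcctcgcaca
Got1: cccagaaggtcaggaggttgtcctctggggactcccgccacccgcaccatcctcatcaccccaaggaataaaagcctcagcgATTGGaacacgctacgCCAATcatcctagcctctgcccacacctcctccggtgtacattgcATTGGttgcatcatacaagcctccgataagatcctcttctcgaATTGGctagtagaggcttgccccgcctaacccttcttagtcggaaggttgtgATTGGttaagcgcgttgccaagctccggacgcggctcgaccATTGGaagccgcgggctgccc
F11r: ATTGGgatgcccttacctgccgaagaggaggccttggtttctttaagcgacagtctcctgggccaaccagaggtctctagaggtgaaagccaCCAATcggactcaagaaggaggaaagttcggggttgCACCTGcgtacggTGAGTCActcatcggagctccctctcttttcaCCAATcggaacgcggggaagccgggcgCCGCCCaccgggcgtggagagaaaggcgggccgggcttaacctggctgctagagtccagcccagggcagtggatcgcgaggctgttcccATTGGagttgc
Cldn7: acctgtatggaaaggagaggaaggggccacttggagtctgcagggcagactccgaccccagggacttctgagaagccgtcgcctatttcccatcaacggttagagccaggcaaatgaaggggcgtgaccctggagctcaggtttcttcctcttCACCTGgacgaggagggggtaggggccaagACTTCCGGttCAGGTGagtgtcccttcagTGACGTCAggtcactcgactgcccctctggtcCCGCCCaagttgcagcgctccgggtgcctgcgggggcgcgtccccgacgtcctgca
Krt18: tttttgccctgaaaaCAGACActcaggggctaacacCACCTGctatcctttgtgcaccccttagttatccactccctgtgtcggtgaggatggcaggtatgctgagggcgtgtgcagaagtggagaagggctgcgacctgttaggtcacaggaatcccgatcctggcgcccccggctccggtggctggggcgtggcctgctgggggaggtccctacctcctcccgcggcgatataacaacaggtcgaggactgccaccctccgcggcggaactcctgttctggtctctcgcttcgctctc
Snai1: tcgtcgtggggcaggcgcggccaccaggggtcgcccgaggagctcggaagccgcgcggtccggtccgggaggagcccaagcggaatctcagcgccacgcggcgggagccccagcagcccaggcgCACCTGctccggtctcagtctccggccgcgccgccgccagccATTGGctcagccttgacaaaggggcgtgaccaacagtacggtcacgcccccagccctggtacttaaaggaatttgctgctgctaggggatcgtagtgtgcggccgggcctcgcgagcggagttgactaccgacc

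The Ltbp2 window carried a 48 h peak of 10.1-fold and the Col7a1 window one of 10.9-fold, and neither had a 0 h peak. The Got1, F11r and Cldn7 windows carried 0 h peaks of 33.4-fold, 12.4-fold and 4.98-fold and no 48 h peak. The Krt18 window had a peak of 12.8-fold at 48 h and of 50.0-fold at 0 h, and the Snai1 window one of 23.0-fold at 48 h and of 18.2-fold at 0 h. The motifs searched on both strands were AP-1 (TGACTCA or TGAGTCA), CRE (TGACGTCA), the E-box of SNAI and ZEB factors (CACCTG or CAGGTG), SMAD (CAGACA or GTCTAGAC), TEAD (GGAATG), GRHL (AACCGGTT or AACCAGTT), SP/KLF (GGGCGG), NFY (CCAAT) and ETS (CCGGAAGT). Matches of different motifs shared a base in 1.80% of all windows. The CCAAT box, bound by NFY, was in 42.7% (40.1 to 45.3%) of lost and 34.6% (33.6 to 35.6%) of kept windows, against 38.2% of all. Of the printed windows Got1 holds 6 matches to it, F11r 4, and Col7a1 (gained) and Snai1 (kept) 1 each. Ltbp2, Krt18 and the lost Cldn7 hold none. The GC box, bound by SP and KLF factors, was in 62.2% (59.6 to 64.7%) of lost and 77.5% (76.6 to 78.4%) of kept windows, against 46.2% of all. The printed windows do not show this order. The kept Krt18 and Snai1 hold no GC box, nor does the lost Got1, while the lost F11r and Cldn7 hold 1 each. AP-1 letters were in 4.99% of lost and 2.58% of kept windows, against 4.66% of all, and were least frequent in kept windows. With the 0 h peak in quintile 2 or 3, the lost and kept shares were 43.1% and 33.7% for the CCAAT box, 61.5% and 75.7% for the GC box, and 4.79% and 2.50% for AP-1. For ETS they were 11.4% and 5.32% there, but 9.62% and 8.91% over all windows. The E-box was in 36.4% (22.4 to 52.2%) of the 44 gained windows, in 21.7% of lost, 17.7% of kept and 19.7% of all windows. With the 0 h peak in quintile 2 or 3 it was in 22.5% of lost and 25.2% of kept windows. These motifs differ in G and C content, so the shares move with the composition given above. A match is a description of the letters.

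**Figure D2:**
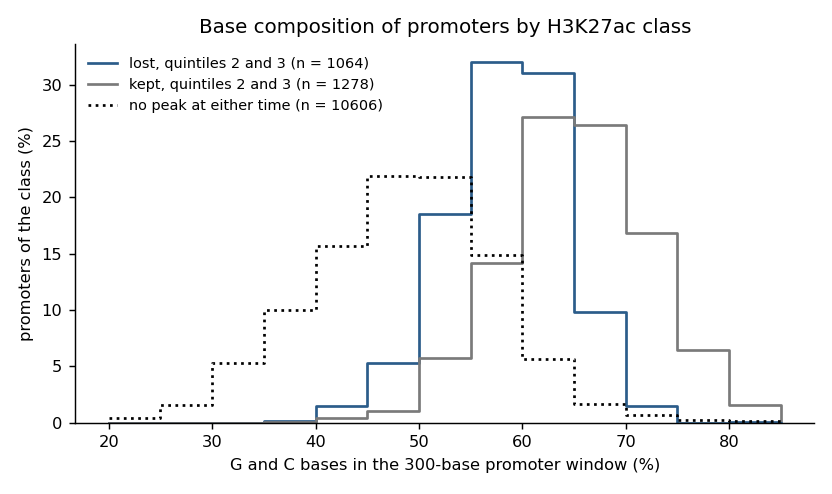
Share of promoters, in percent, by the percentage of G and C bases in the 300-base window, in bins of 5 points, for promoters that lost or kept H3K27ac with a 0 h peak in quintile 2 or 3, and for promoters with no peak. The lost class (median 58.7%) lies left of the kept class (median 65.0%) and right of promoters with no peak (48.7%).

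The 10 strongest gained peaks by −log10 q were unlike the bulk of gained peaks. H3K4me1 at 48 h was called at 9 of them and H3K4me3 at 8, and H3K14ac at 48 h at 8. The strongest lay in Atxn7l1, a relative of the SAGA subunit gene Atxn7 (38.0-fold; chromosome 12, 33223179 to 33223713), followed by Angpt4, an angiopoietin (24.0-fold; chromosome 2, 151911349 to 151911638). Others lay in Kif26b (9.17), Osbp2 (10.8), Nav2 (13.3) and Ltbp2 (10.1; chromosome 12, 84875697 to 84876637). Peaks between genes stood 51365 bp from the start of Laptm5 (22.3), 61318 bp from C1galt1 (20.1) and 36549 bp from Ier3, an immediate early gene (19.9). The last of the 10 had no gene start within 100 kb (22.2; chromosome 12, 13698312 to 13698977).

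Of the 10 strongest lost peaks by −log10 q, 7 were promoter peaks. Chchd2, which encodes a mitochondrial protein, had the highest at 77.2-fold (chromosome 5, 129886929 to 129887359). Peaks of 51.3-fold lay at Cic, a transcriptional repressor gene, of 38.3 at Txn2, the mitochondrial thioredoxin, of 33.4 at Got1, of 47.8 at Fiz1 and of 47.6 at Gm4924. A peak of 52.6-fold lay in Sirt4, a mitochondrial sirtuin, 1663 bp from a start of Pxn, and one of 39.0-fold lay in Ttc39a. Peaks between genes stood 12812 bp from Sec31a (58.6) and 25812 bp from Zfp846 (63.5). H3K14ac at 48 h was called at all 10 and H3K4me3 at 9, both at 48 h and at 0 h, while H3K18ac at 48 h was called at none. The nearest 48 h H3K27ac peak was 370 bp away at Cic and 374 bp at Fiz1, and 12493 bp or more away at the other 8.

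Most epithelial genes had H3K27ac peaks at both times, and many of them lost some of their peaks. Counting the gene span and 10 kb to either side, 52 of 60 epithelial genes had an H3K27ac peak at both times, 0 had one at 48 h only, 5 at 0 h only and 3 at neither time. Of the 52, 48 kept at least 1 peak, while Cdh3, F11r, Lamb3 and Nectin4 had other peaks at 48 h than at 0 h. Over all 21887 protein-coding genes, 58.1% had a peak at both times, 1.04% at 48 h only, 8.48% at 0 h only and 32.3% at neither, so the 5 of 60 (8.33%) at 0 h only is at the level of all genes. The shares over peaks, here and in the lists below, were not matched for the mix of distal and promoter peaks or for gene length. Of the 0 h peaks at epithelial genes, 73 of 150 were lost (48.7%), against 36.0% at all protein-coding genes. Those with a peak at 0 h only were Krt19, a simple-epithelial keratin (34.0-fold; chromosome 11, 100145053 to 100145946), Dsc2, a desmosomal cadherin (5.58), the claudin genes Cldn3 (5.20) and Cldn7 (4.98) and Lama3, a laminin chain of the basement membrane (3.34). The reference gave no strand for 28 of the 60 epithelial, 19 of the 57 mesenchymal and 12 of the 34 TGFβ signalling genes. A start peak of such a gene, Cdh1, Cdh2, Cdh3, Klf5, Esrp2, Zeb1, Fn1, Col1a1, Smad2, Smad7, Skil and Pmepa1 among them, is one within 2 kb of either gene end. H3K4me3 was called at the Krt19, Cldn3 and Cldn7 peaks at 48 h as well as at 0 h. Within 2 kb of a gene start 11 epithelial genes had a peak at 0 h only (9.34% of all genes did), and these took in F11r and the adherens junction genes Cdh3 (5.74) and Nectin4 (6.44).

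All 4 keratin genes lost peaks, 10 of their 14 peaks at 0 h in all. Krt8 had 1 peak at 48 h (13.6-fold) and 3 at 0 h, the highest at 55.5-fold, and Krt18, its neighbour and partner, had 3 peaks at 48 h and 6 at 0 h, 4 of them lost. Krt7 had a start peak of 17.9-fold at 48 h and of 31.9-fold at 0 h. At Cdh1, which encodes E-cadherin, the start peak was called at both times (78.3-fold at 48 h, 106-fold at 0 h), and the 3 other 0 h peaks were lost, while 2 peaks were gained (3.82-fold and 3.72-fold). Epcam had a single peak at each time (8.09-fold at 48 h, 9.80-fold at 0 h). Tight junction and polarity genes lost 27 of 51 peaks, among them 5 of 8 at Llgl2 and 5 of 8 at Tjp3, a scaffold of tight junctions, and desmosome genes lost 10 of 18, with 5 of 6 at the plakophilin gene Pkp3. The 14 epithelial transcription and splicing regulators lost 8 of 26, at 6 of the genes, and the protease and traffic genes 3 of 20. Among the regulators Esrp1, a splicing factor, lost its peak at a gene end (3.45-fold) and kept another (136-fold at 48 h, 71.7-fold at 0 h). Klf5 (149-fold at both times), Esrp2 (51.0-fold at 48 h, 54.2-fold at 0 h) and Foxa1 (53.1-fold at 48 h, 21.4-fold at 0 h) lost no peak.

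Gains at epithelial genes were most frequent in the cell adhesion subgroup. Over the list, 24 of 104 48 h peaks were gained (23.1%), against 13.1% at all protein-coding genes. That subgroup held 11 of them, with 4 at Lamb3 (up to 5.38-fold), a laminin chain of the basement membrane. At Lamb3 the 0 h start peak (3.81-fold) was lost. Cldn4 and the desmoplakin gene Dsp gained 3 each, and the 14 transcription and splicing regulators gained 0.

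**Figure D3:**
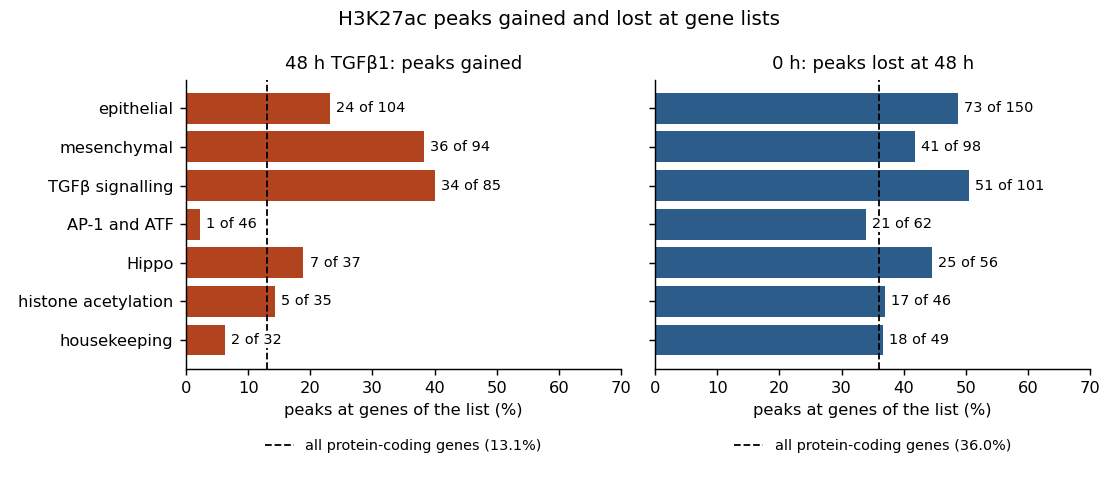
Share of 48 h peaks that were gained (left) and of 0 h peaks that were lost (right), in percent, at the genes of each list (span and 10 kb to either side), with the counts beside each bar and the share at all protein-coding genes as a dashed line. Gains at TGFβ signalling genes (40.0%) and mesenchymal genes (38.3%) stand above the 13.1% at all genes. The lists were not matched for their mix of distal and promoter peaks or for gene length.

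Mesenchymal genes also mostly had H3K27ac before treatment. Of 57, 40 had a peak at both times, 1 at 48 h only, 5 at 0 h only and 11 at neither time. The gained share of 48 h peaks was 38.3% (36 of 94), against 13.1% at all genes, and Itgb3 alone held 12 of the 36. The lost share of 0 h peaks was 41.8% (41 of 98), near the 36.0% at all genes, which lies inside its interval of 31.9 to 52.2%. Over the whole 48 h list 52.6% of distal and 2.44% of promoter peaks were gained. The part of the distal and promoter mix in the 38.3% was not tested. Mmp2, a gelatinase, was the gene with a peak at 48 h only (3.37-fold). Within 2 kb of a gene start, 3 of these genes had a peak at 48 h only (0.539% of all genes did), among them Timp1, a metalloproteinase inhibitor (6.54). Mmp2 is counted there because its strand was not given, and its peak (chromosome 8, 92855359 to 92855611) lies 28.07 to 28.32 kb from the lower-numbered end of a gene of 26.1 kb. Genes with a peak at 0 h only were Snai2, a repressor of the SNAI family (15.2-fold), the matrix genes Sparc (11.6), Vcan (9.21) and Fbn1 (6.10) and the smooth muscle gene Tagln (5.65). H3K4me3 was called at the Snai2 peak at 48 h and at 0 h.

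The other transcription factors of the transition were marked at their starts at both times. Zeb1 had 160-fold at 48 h and 141-fold at 0 h, Zeb2 173-fold at 48 h and 141-fold at 0 h, and Snai1 23.0-fold at 48 h and 18.2-fold at 0 h. Twist1 had 1 peak at 48 h (2.19-fold) and 2 at 0 h, the higher of which (4.33-fold) was lost. Start peaks were also called at both times for Cdh2, which encodes N-cadherin (163-fold at 48 h, 178-fold at 0 h), for Fn1, fibronectin (13.1-fold at 48 h, 21.9-fold at 0 h), for Vim, vimentin (22.0-fold at 48 h, 52.0-fold at 0 h), and for Col1a1, a type I collagen chain (17.1-fold at 48 h, 9.11-fold at 0 h). Acta2, smooth muscle actin, had no peak at either time. By role, 19 of 33 48 h peaks were gained at adhesion and receptor genes (7 of 20 without Itgb3), 8 of 16 in the protease system and 1 of 18 at transcription factors, and losses were most frequent at matrix genes (12 of 20 0 h peaks) and cytoskeleton genes (13 of 24).

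Itgb3, the β3 chain of vitronectin-binding integrins, had 13 peaks at 48 h and 1 at 0 h. The peak at the gene end was called at both times (37.6-fold at 48 h, 33.6-fold at 0 h), and the other 12 were gained, with folds of 2.66 to 9.64. Its partner gene Itgav had 1 gained peak of 3, and Itga5 2 of 4, up to 12.6-fold. Itgb3 belongs to the few genes with several gained peaks, since 0.658% of all protein-coding genes, 144 of 21887, had at least 3. At least 3 were gained at 11 genes of the 3 lists, 4 of the 60 epithelial, 2 of the 57 mesenchymal and 5 of the 34 TGFβ signalling genes. At least 5 were lost at 3 epithelial genes (Llgl2, Pkp3 and Tjp3), at 1 mesenchymal gene (Cnn2, a calponin) and at 3 TGFβ signalling genes, against 1.01% of all protein-coding genes. At least 1 was gained at 12 epithelial, 17 mesenchymal and 9 TGFβ signalling genes, against 6.51% of all. At least 1 was lost at 33, 26 and 20 (55.0%, 45.6% and 58.8% of the lists), against 28.7% of all. All genes include the 32.3% with no peak at either time. At least 1 was also lost at 45.0% of housekeeping genes and 52.4% of AP-1 and ATF genes. For genes of the Hippo pathway and of histone acetylation the shares were 52.6% and 36.8%. The genes with several gained or lost peaks were singled out after their values were seen.

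Of 34 genes of TGFβ signalling, 33 had H3K27ac peaks at both times, 0 at 1 time only and Itgb8 at neither, and 31 of the 33 kept at least 1 peak. At these genes 34 of 85 48 h peaks were gained (40.0%), against 13.1% at all genes, and 51 of 101 0 h peaks were lost (50.5%), against 36.0%. Ltbp1 alone held 13 of the gains, and without it 21 of 70 peaks were gained (30.0%). Ligands and activators come first. Ltbp1, which encodes the protein that tethers latent TGFβ to the matrix, had 15 peaks at 48 h, 13 of them gained (3.78-fold to 7.82-fold), and 3 at 0 h. At Itgb6, the β6 chain of an integrin that activates latent TGFβ, no base was shared, as its 6 peaks at 48 h (3.38-fold to 8.57-fold) were all gained and its 2 at 0 h were all lost. The ligand gene Tgfb1 had 3 peaks at 48 h and 8 at 0 h, and of the 5 that were lost the highest was 38.5-fold.

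Receptor and SMAD genes kept their start peaks. Tgfbr1 had 168-fold at 48 h and 95.3-fold at 0 h, Tgfbr2 108-fold at 48 h and 131-fold at 0 h and Smad2 147-fold at 48 h and 148-fold at 0 h, with no other peak. Acvr1, a type I receptor of the BMP and activin branch, gained 4 peaks of its 5 at 48 h, up to 10.4-fold. Smad3 had 3 peaks at 48 h and 6 at 0 h, of which 5 were lost. The feedback genes Smad7 (182-fold at 48 h, 117-fold at 0 h) and Skil (255-fold at 48 h, 284-fold at 0 h) kept their start peaks as well. Pmepa1, a feedback inhibitor that holds SMAD2 and SMAD3, stood out in the opposite direction from Itgb3. It had 1 peak at 48 h (265-fold) and 13 at 0 h, where the start peak (262-fold) was kept and the other 12 were lost (2.71-fold to 8.16-fold). Among targets, Ccn2, a matricellular growth factor, had 5 peaks at 48 h, 3 of them gained, and 2 at 0 h, and Id1, an inhibitor of basic helix-loop-helix factors, had 3 at 48 h and 6 at 0 h, 3 of them lost. At Nedd9, a docking protein of focal adhesions, the 3 peaks at 48 h were all gained and the 2 at 0 h all lost.

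**Figure D4:**
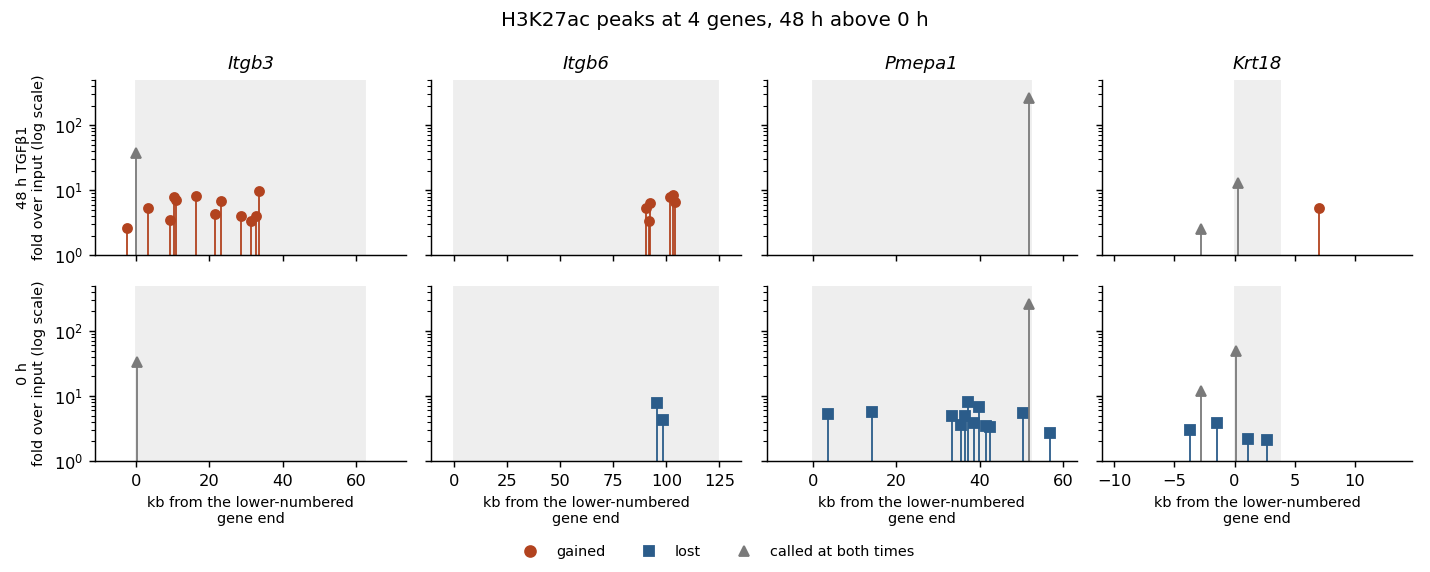
H3K27ac peaks at Itgb3, Itgb6, Pmepa1 and Krt18 at 48 h (upper row) and 0 h (lower row), as fold over input on a log scale against distance in kb from the lower-numbered gene end; the gene is shaded, and circles are gained, squares lost and triangles peaks called at both times. Itgb3 has 12 gained peaks and Pmepa1 12 lost ones beside a single shared peak each, and folds of the rows are not comparable.

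The other gene lists are set beside the 13.1% of 48 h peaks gained and 36.0% of 0 h peaks lost at all genes. AP-1 and ATF genes, which encode bZIP factors, gained 1 of 46 48 h peaks (2.17%) and lost 21 of 62 0 h peaks (33.9%), and 20 of 21 were marked at both times. Targets and members of the Hippo pathway gained 7 of 37 (18.9%) and lost 25 of 56 (44.6%), with 3 gains at Ankrd1, a target of YAP. Genes of histone acetylation gained 5 of 35 (14.3%) and lost 17 of 46 (37.0%). The deacetylase gene Hdac9 had 3 peaks at 48 h and 0 at 0 h, and Hdac7 lost 7 of 9. Housekeeping genes gained 2 of 32 (6.25%) and lost 18 of 49 (36.7%). Housekeeping genes are those that nearly every cell uses, such as Actb and Gapdh. Of 29 markers of other cell types (immune, endothelial, adipocyte, muscle, neural, liver, basal and secretory mammary), 1 had a start peak at both times, 0 at 48 h only, 4 at 0 h only and 24 at neither time. With the gene span and 10 kb to either side, 8 of these markers had a peak at both times, 2 at 48 h only, 6 at 0 h only and 13 at neither time, and the immune markers had no peak at 48 h. The labelled epithelial type was checked against Cdh1, Epcam, Krt8, Krt18, Esrp1 and Cldn7, which all had peaks at 0 h. So did the mesenchymal markers Vim, Cdh2, Zeb1 and Col1a1.

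Part of the lost peaks lay together, as did part of the gained and kept peaks. Joined across gaps of up to 12500 bp, 1910 of the 7967 lost peaks (24.0%) fell into 443 clusters of at least 3, while 11.2% of kept peaks formed such clusters with each other and 20.5% of gained peaks did, in 168 clusters. All 0 h peaks, kept or lost, formed 1298 such clusters. Promoter peaks made up 36.2% of lost and 79.2% of kept peaks, and the cluster shares were not matched for this. No 48 h peak lay inside 254 of the 443 clusters of lost peaks, and 124 of the 443 held at least 5 lost peaks. The number was 198 when the 0 h list was cut to the length of the 48 h list, and 254 when gaps were held to 5 kb. The largest spanned 100 kb of chromosome 10 (79973058 to 80073365) with 24 lost and 5 kept peaks. It covers Abca7, Arhgap45, Cnn2, Gpx4, Grin3b, Polr2e, Sbno2 and Tmem259, of which Gpx4 encodes the peroxidase that protects lipids and Polr2e a subunit of RNA polymerase II. Clusters of 16 lost peaks lay at Epha2, an ephrin receptor (chromosome 4, 141271422 to 141324591), and at Plec, the cytoskeletal linker of hemidesmosomes (chromosome 15, 76172209 to 76209140). Clusters of 13 lay at Wnt7b, a Wnt ligand, at Pxn, the focal adhesion adaptor paxillin, and over Adamtsl5, Apc2, Pcsk4, Plk5, Reep6 and 2310011J03Rik. Clusters of 12 lay between genes on chromosome 2 (167727032 to 167782912) and over Nfic, Dohh, Smim24 and Gm48552, and clusters of 11 at Dagla and over Mlycd, Necab2 and Osgin1. The last of these held no 48 h peak at all.

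These clusters differed in the other marks. At Plec, H3K4me3 at 48 h was called at 14 of the 16 lost peaks and H3K4me1 at 48 h at 4, against 15 and 13 at 0 h. At Epha2, H3K4me3 at 48 h was called at 1 of 16 and H3K4me1 at 1, against 4 and 3 at 0 h. At Wnt7b H3K4me1 was called at 0 of 13 at 48 h and at 10 at 0 h. The whole H3K4me1 list was shorter at 48 h, with 12863 peaks against 20179 at 0 h, and 62.6% of its distal 0 h peaks were lost. H3K4me3 of the same time overlapped 91.3% of H3K4me1 peaks at 48 h and 86.3% at 0 h. Of the genes in the epithelial, mesenchymal and TGFβ signalling lists, 14 of 151 lay in clusters of lost peaks (9.27%), against 2.93% of all protein-coding genes. Among them were Pmepa1 (10 lost peaks over 24.1 kb), Krt18 (8 over 26.2 kb), Pkp3, Llgl2, Cdh3, Nectin4, Tjp3 and Cldn7. These lists held many 0 h peaks, 150 at 60 epithelial, 98 at 57 mesenchymal and 101 at 34 TGFβ signalling genes. All 21887 genes held 18416. At least 3 peaks were lost at 15.0% of housekeeping genes, against 3.87% of all. Among gained peaks the longest runs, singled out after their values were seen, were 13 at Itgb3 (chromosome 11, 104596150 to 104641652), 10 at Vmp1, 10 on chromosome 16 outside protein-coding genes (55531069 to 55557586), 8 at Ccn4 and 8 at Glrp1. Runs of 7 lay at Lrrk1 and, outside genes, on chromosomes 15 and 5, and Ccn2 had one of 6.

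Gained and lost distal peaks carried different marks. H3K18ac, an acetylation made by the same p300 and CBP, was called at 48 h on 86.0% of the 2955 gained distal peaks, on 8.42% of lost distal and on 47.1% of kept distal peaks. Part of this was present before treatment, since H3K18ac at 0 h was called on 46.1% of gained distal peaks. At 0 h it was called on 15.5% of lost distal and 30.6% of kept distal peaks. By contrast 93.7% of gained distal peaks had neither H3K4me3 nor H3K4me1 at either time, against 32.6% of lost distal and 22.2% of kept distal peaks. Lost distal peaks held H3K4me3 at 48 h in 53.8% and at 0 h in 57.6%, and H3K4me1 at 48 h in 31.4% and at 0 h in 58.0%. Kept distal peaks held H3K4me1 at 48 h in 57.6% and at 0 h in 58.0%. In quintiles 2 and 3 by −log10 q the 0 h shares were not equal, at 60.4% of lost and 70.6% of kept distal peaks. Among lost promoter peaks H3K4me3 was called on 83.8% at 48 h and on 84.7% at 0 h, and H3K14ac at 48 h on 83.7%. At 48 h, H3K18ac was called on 12 of 12 gained peaks at Itgb3, 12 of 13 at Ltbp1, 6 of 6 at Itgb6, 4 of 4 at Acvr1, 4 of 4 at Lamb3 and 3 of 3 at Ccn2, and H3K4me3 on none of them. H3K18ac was already called at 0 h on 3 of these peaks at Itgb3, 7 at Ltbp1, 6 at Itgb6, 3 at Acvr1, 3 at Lamb3 and 1 at Ccn2. At Dsp H3K18ac was called at 48 h on 2 of 3 gained peaks and H3K4me1 at 48 h on 1 of the 3. The lost peaks of Pmepa1 differed from the lost distal class, with H3K18ac at 48 h on 8 of 12. This was not so at Pmepa1 alone, since H3K18ac at 48 h was called on 7 of the 8 lost peaks of the Krt18 cluster. At Cdh1 it was called on 2 of 3 lost peaks.

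In a narrower range of strength the order of gained, lost and kept distal peaks was the same for H3K18ac at 48 h and for H3K4me1 at 48 h. Among peaks of quintiles 2 and 3 of their list, H3K18ac at 48 h was called on 91.2% of 1102 gained, 7.71% of 2788 lost and 31.1% of 1438 kept distal peaks, and H3K4me1 at 48 h on 6.90%, 31.7% and 67.6%. PHF10, a subunit of the PBAF remodeller, was called at 0 h on 7.71% and 19.4% of lost distal peaks (replicates 1 and 2) and on 49.9% and 50.6% of kept distal peaks. At 48 h the PHF10 shares in lost and kept distal peaks were 65.8% and 65.8% in replicate 1 and 87.5% and 79.9% in replicate 2. In gained distal peaks they were 3.90% and 6.35%. These shares depend on the threshold of the lists. Over all distal peaks with −log10 q of at least 5 in every list, the 48 h PHF10 shares in lost and kept peaks were 4.89% and 21.4% in replicate 1 and 15.5% and 21.1% in replicate 2. The 0 h PHF10 shares in lost and kept peaks were then 6.08% and 44.7% in replicate 1 and 1.35% and 11.7% in replicate 2. The bZIP factor ATF3 at 48 h was called on 5.17% of gained, 69.0% of lost and 78.6% of kept distal peaks, and BRG1, the SWI/SNF ATPase, at 0 h on 18.2%, 36.4% and 28.0%. For BRG1 the order of lost and kept turned with peak strength, since over all distal peaks the shares were 31.2% of lost and 39.2% of kept, and 3.75% and 4.37% with −log10 q of at least 5 in every list. A list that is longer overlaps more by its length alone, and the classes of a column share that list. The ChIP libraries of the histone marks at a time also name an input of the same time, which may be a single library, and its part in shared calls was not tested.

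**Figure D5:**
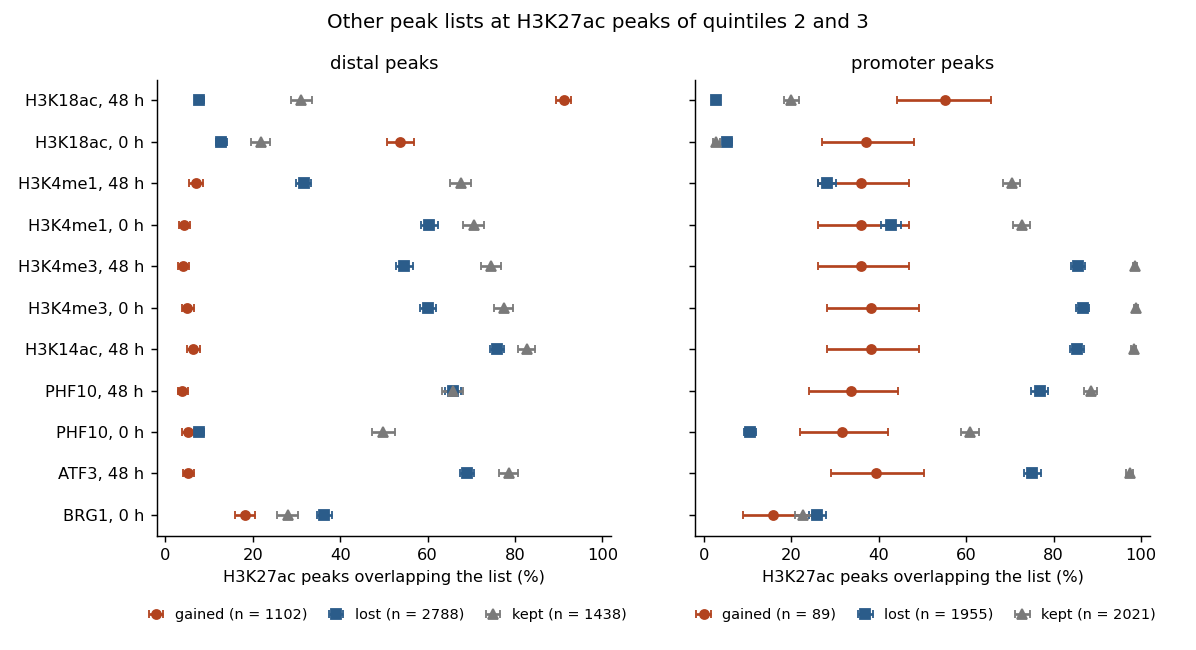
Share of H3K27ac peaks of quintiles 2 and 3, in percent, that overlap the list of another target in control cells (PHF10 is replicate 1), for gained (circles), lost (squares) and kept (triangles) peaks, distal at left and promoter at right; bars are exact 95% intervals. H3K18ac at 48 h marks 91.2% of gained distal peaks, while H3K4me3, H3K14ac, PHF10 and ATF3 at 48 h each mark under 10% of them.

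H3K27ac lay between H3K4me3 and H3K4me1 in how much of its lists moved, with 20.1% of 48 h peaks gained and 38.9% of 0 h peaks lost. The H3K4me3 lists had 9.23% gained and 14.1% lost, and those of H3K4me1 had 24.0% gained and 50.8% lost. For H3K18ac 70.6% were gained and 52.7% lost. The H3K14ac lists held 35270 peaks at 48 h and 3453 at 0 h, and 91.4% of the 48 h peaks were gained and 10.6% of the 0 h peaks lost. Distal losses exceeded promoter losses for each of these marks, with 23.5% against 3.20% for H3K4me3, 62.6% against 31.6% for H3K4me1, 58.4% against 31.3% for H3K18ac and 56.8% against 0.142% for H3K14ac. By chromosome the lost share of H3K27ac peaks ran from 31.3% on chromosome 16 to 45.4% on chromosome 7 among the autosomes, with 41.8% on X and 3 of 5 peaks on Y.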

How the data were processed

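ChIP-seq peak lists of H3K27ac in control NMuMG cells (48 h of TGFβ1 and 0 h, 1 library each) were analysed as deposited, with the control lists of 4 other histone marks, PHF10, BRG1, ATF3, FOSL2 and FOSB for overlap. Tools in the submitters' processing notes are Partek 11.0.24.0325, MACS3 3.0.0a7, deepTools 3.5.1, Bowtie2 2.3.3 and fastp 0.19.5, with mm10 as build. Their settings are not given in the sources used here. The name that every deposited peak carries pairs 1 ChIP library with 1 input. The deposited pileup signal at each peak was not used. The deposited −log10 p-values and q-values are the peak caller's, and q served to rank and filter. Fold enrichment, as deposited by the authors, is a ratio of ChIP to input. Read depth is unknown, so list length cannot be corrected for it.

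Overlap needed 1 base. Genes came from RefSeq (GRCm38.p6, the assembly mm10 names). Of 21887 protein-coding genes 17492 had stranded starts, and both ends stood for the start of the other 4395. Exons and introns were not assigned. All 259 symbols of the gene lists were found. Computing used Python 3.11.15, pandas 2.3.3, numpy 2.4.6 and scipy 1.17.1, and the overlap code was tested on simulated peaks. Members, lists and rules were chosen with earlier results of these data known. Genes were named when a list member had peaks at 1 time only (up to 15 per list and direction), for the 10 strongest lost and gained peaks (by a gene within 100 kb), for the 10 clusters with most lost peaks, and for 22 genes named in any case, and others were named after their values were seen. Alternatives were −log10 q or fold of at least 5, lists of equal length, other overlap, promoter, gene and cluster settings, and core motifs. The comparison within quintiles 2 and 3 was added after seeing the data. Motifs around peak summits were not run. A few list members are counted in the lists but not reported here by name.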

Additional observations from a re-analysis of the deposited data

How the results depend on the processing

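Peak shares, gene counts and cluster counts cannot be negative, so no change of sign was possible for them. The difference between distal and promoter losses and the log2 ratio of peak number could change sign, and neither took the opposite one. Of the alternative values of these main results, 39 moved out of the range set around the main value and 33 did not. For other lists and promoter motifs 138 moved and 148 did not. A further 2 turned sign where the main interval did not include 0. None has a test. The log2 ratio of peak number was -0.27 at a fold of at least 5 and 0 by construction in lists of equal length. The gained share of 48 h peaks (20.1%) and the kept share of 0 h peaks (61.15%) were 18.7% and 62.8% at −log10 q of at least 5 in both lists, 17.4% and 63.7% with that filter on the counted list alone, 16.5% and 68.5% at a fold of at least 5, 26.7% and 71.85% in lists of equal length, and 17.98% and 64.9% with peaks within 1 kb counted as shared. Distal and promoter losses were 63.4% and 20.1% at a fold of at least 5, 56.3% and 16.7% in lists of equal length (39.6 points apart), 61.8% and 19.1% within 1 kb, and 63.9% and 21.1% with the filter on the counted list alone. Promoter losses were 19.9% with a window of 1 kb (45.8 points below distal), 26.4% with 5 kb (40.1 points), and 31.2% with promoters defined by H3K4me3 at 0 h, where distal losses were 78.8% (47.6 points apart). Within 2 kb of the start, 3 mesenchymal genes had a peak at 48 h only and 11 epithelial and 2 TGFβ signalling genes at 0 h only. At a fold of at least 5, 3 epithelial genes had one at 48 h only and 9 mesenchymal genes at 0 h only, and in lists of equal length 2 epithelial and 3 mesenchymal genes had one at 48 h only. Clusters numbered 254 when joined within 5 kb, 124 with at least 5 peaks, 267 without kept peaks inside and 198 in lists of equal length. Lost minus kept shares of promoters turned sign in quintiles 2 and 3 by −log10 q, an alternative added after seeing the data, for the CRE (0.503 points), the E-box (-2.73 points) and TEAD (-0.62 points, against 0.060), and for ETS with its core letters (-1.36 points, against 0.71). The order of lost and kept peaks in other lists turned in quintiles 2 and 3 for 2 of 15 lists at distal peaks (BRG1 and FOSL2) and 4 of 15 at promoters (BRG1, FOSL2, H3K18ac at 0 h, and H3K4me1 at 0 h with 42.8% of lost and 72.7% of kept, against 51.1% and 38.8% over all), and at −log10 q of at least 5 for 1 (PHF10 at 48 h, replicate 2, distal). The cause of these shifts was not tested. No paired analysis was possible because each time had 1 library. Unknown depth limits every count of lost and gained peaks, which are mostly the weaker peaks of their list.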
